A study of Mus musculus with 2 samples.

Results

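In microRNA (miRNA) sequencing of the mouse forebrain at embryonic day 16.5, 24 of the 1973 annotated miRNA rows of the count tables held more than 99% of their reads on the strand opposite to the annotated gene. Of these, 11 had at least 100 reads over both libraries, 4 of them on chromosome 12, and the other 13 had at most 20 reads each. The rows described here are the 7 with at least 100 reads outside chromosome 12: Gm25927, Gm24083, Gm25301, Mir497b, Mir142b, Gm24111 and Gm25641. They were named as a set with these same reads in view, by an opposite-strand share over 99% and by the miRNA gene that faces each of them. At each of the 7 loci the opposite strand carries another annotated miRNA gene: Mirlet7e opposite Gm25927, Mir191 opposite Gm24083, Mir378a opposite Gm25301, Mir497 opposite Mir497b, Mir142 opposite Mir142b, Mirlet7f-1 opposite Gm24111 and Mir9-1 opposite Gm25641. None of these 7 other genes had a row of its own. The opposite-strand reads of the 7 rows are therefore the counts that the tables hold for the strand of 7 other miRNA genes. The tables give no read positions inside a row, so the arm of the hairpin that a read came from is not known.

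The data are from 2 libraries of 1 group. Both were made from total RNA of forebrain of healthy B6NCrl embryos at day 16.5, pooled over males and females, with no treatment or mutant allele in the labels. The replicate 2 pool was from 41 embryos, and the size of the replicate 1 pool is not stated. The labels give each pool its own biosample record but the same donor record, and whether the pools came from separate litters is not stated, so p-values below measure only the difference between these 2 libraries. The labels describe no second condition, and the comparison the design allows is replicate 1 against replicate 2.

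miRNAs are short RNAs cut from a hairpin precursor by Drosha and Dicer. A mature miRNA pairs with target mRNAs mainly through its seed, bases 2 to 8, and lowers their output. Because a hairpin is close to palindromic, the reverse complement of a miRNA gene can also be drawn as a hairpin, and annotations sometimes hold a miRNA gene on each strand of one locus. Among the miRNAs of these loci, the let-7 family times cell differentiation and rises as neurons mature, miR-9 acts in neural progenitors and their differentiation, miR-142 is a marker of blood cells and their tissue macrophages such as microglia, and miR-497 belongs to the miR-15/16 family that restrains the cell cycle.

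The sequences below show which mature miRNAs the strand of the reads encodes, as annotated in RefSeq for GRCm38.p6, with the seed in capitals.
let-7e-5p: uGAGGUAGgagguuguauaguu
let-7f-5p: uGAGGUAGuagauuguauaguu
miR-191-5p: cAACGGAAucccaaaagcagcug
miR-497a-5p: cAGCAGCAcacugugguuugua
miR-142a-5p: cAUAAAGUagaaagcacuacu
miR-142a-3p: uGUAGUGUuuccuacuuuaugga
miR-9-5p: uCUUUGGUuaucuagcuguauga
miR-9-3p: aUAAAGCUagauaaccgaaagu
Of these, let-7e-5p and let-7f-5p shared the seed GAGGUAG. They differed at 2 positions, counted from the 5′ end with let-7e-5p first, G9U and G12A. The miR-497a-5p seed AGCAGCA is that of the miR-15 and miR-16 miRNAs. No other annotated mature miRNA in the RefSeq table shared the seed of miR-191-5p or of either miR-142a arm.

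At 3 of the 7 loci RefSeq also annotates mature miRNAs on the strand of the row itself, the strand with almost no reads. They are printed here, again with the seed in capitals, because they are what the row's own name stands for.
miR-497b: cACCACAGugugguuuggacgugg
miR-142b: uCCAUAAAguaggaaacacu
miR-9b-5p: uUCGGUUAucuagcuuuauga
miR-9b-3p: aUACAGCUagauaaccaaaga
These resembled the mature miRNAs of the other strand without sharing their seed, as the sequences of miR-9-5p and miR-9b-5p show side by side. Aligned without gaps, miR-142b matched miR-142a-5p at 16 of 18 positions, miR-9b-5p matched miR-9-5p at 19 of 21, and miR-497b matched miR-497a-5p at 16 of 19. Within the aligned stretch the miRNAs of the 2 strands therefore differ at 2 or 3 bases, and bases at the ends are left unaligned. The strand column is what separates them in the counts.

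The geometry of a locus is shown for the row with the most reads, Gm25927 (ENSMUSG00000092799.1, chr17:17830343-17830459, minus strand, mm10, which is GRCm38). Its 117 bases in GENCODE M21 contain the whole of Mirlet7e, chr17:17830352-17830444 on the plus strand. The gene Spaca6 overlaps the row on that same strand. In the Mirlet7e hairpin of RefSeq the capitals mark let-7e-5p and let-7e-3p. In the Gm25927 sequence of GENCODE M21 they mark the reverse complement of those arms, so the mature sequences lie in the row but can be read only from its other strand.
Mirlet7e: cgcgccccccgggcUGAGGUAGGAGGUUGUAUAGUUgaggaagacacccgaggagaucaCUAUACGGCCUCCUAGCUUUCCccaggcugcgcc
Gm25927: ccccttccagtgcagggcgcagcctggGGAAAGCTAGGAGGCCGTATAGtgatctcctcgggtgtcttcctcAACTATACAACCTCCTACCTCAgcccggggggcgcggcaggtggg

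The Mir142 locus is shown as the case in which both strands have an annotated product. In the Mir142 hairpin of RefSeq the capitals mark miR-142a-5p and miR-142a-3p, and in the Mir142b row of GENCODE M21 they mark miR-142b.
Mir142: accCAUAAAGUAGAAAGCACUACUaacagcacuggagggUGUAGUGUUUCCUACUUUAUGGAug
Mir142b: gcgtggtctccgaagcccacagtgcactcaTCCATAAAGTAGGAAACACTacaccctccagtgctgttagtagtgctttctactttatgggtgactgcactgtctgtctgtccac
In GENCODE M21 all 7 rows had the same nested layout. The rows were 97 to 125 bases long, the hairpins on the other strand 64 to 93 bases, and each hairpin lay wholly inside its row. No gene other than the row was annotated on the row's own strand. On the other strand 6 of the 7 rows overlapped a gene that is not a miRNA gene, and the row at Mir497 was the exception.

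**Figure D1:**
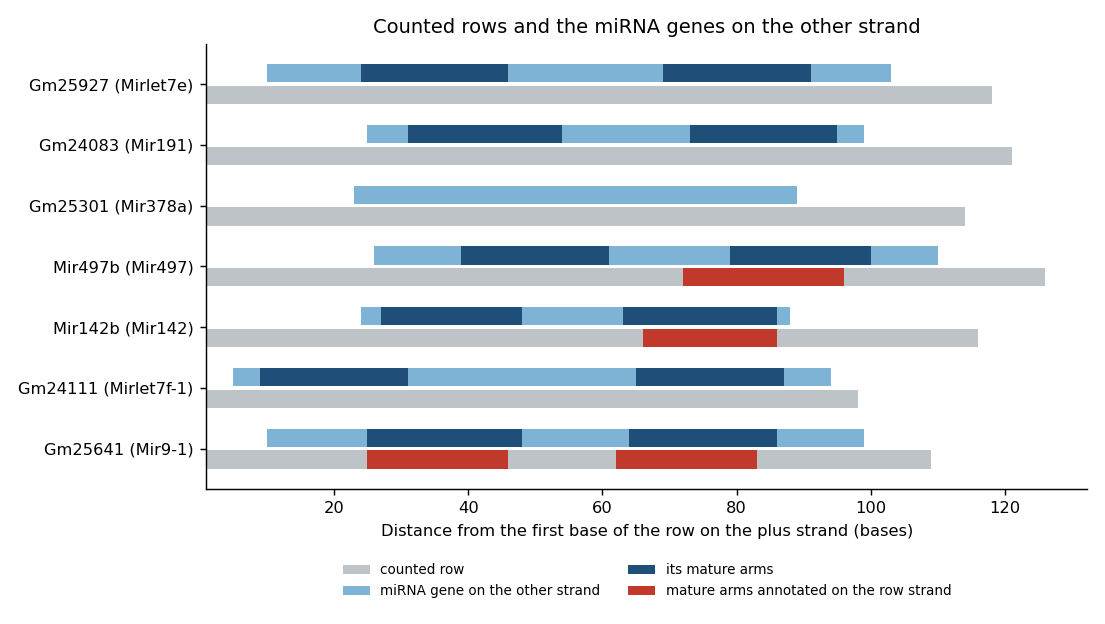
Map of the 7 loci, with the distance in bases from the first base of the row on the plus strand on the x axis. The counted row, with its extent in GENCODE M21, is grey. The miRNA gene of the other strand is light blue with its RefSeq mature arms dark blue (none drawn for Mir378a), and mature arms annotated on the row's own strand are red. All 7 hairpins of the other strand lie inside their row, and 3 rows have mature arms of their own.

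The map of the 7 loci shows where the mature arms of the 2 strands face each other. At Mir9-1 and at Mir142 the arms of the row strand lie almost exactly over arms of the other strand, and miR-497b spans the loop side of the miR-497a-3p arm.

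Depth and unassigned reads were as follows in all. The gene-strand total was 5060112 reads in replicate 1 and 4158686 in replicate 2, and all opposite-strand reads came to 98526 and 72095. CPM here means reads per 1000000 gene-strand reads of the library, and a count of 0 allows up to 0.593 CPM in replicate 1 and 0.721 CPM in replicate 2 (3 reads per library). Multiply mapping reads, 40.5% of the library in replicate 1 and 43.3% in replicate 2, are totalled apart from the rows, so a count is of uniquely placed reads. Intervals and limits cover counting error only. Of the 10 listed neural miRNA genes 9 had a row, and these summed to 22976 ± 479 CPM (SD, n = 2). Mir137, Mir128-1, Mir128-2 and Mir92b carried most of that sum, with 2065 to 12348 CPM each, while Mir124a-1, Mir124a-2 and Mir124a-3 had 1.07 to 4.27 CPM of uniquely placed reads. Of the other tissues listed, the liver miRNA Mir122 had 81.4 ± 23.3 CPM, and the 7 muscle rows summed to 42.2 ± 5.66 CPM, with Mir1a-1, Mir133a-1 and Mir133a-2 at 0 in both libraries. Mir124a, Mir1a and Mir133a have several gene copies, and reads that fit more than 1 copy are not counted. A low count or a 0 in their rows therefore does not bound the level of the mature miRNA, and shared sequence was not checked for them.

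The opposite-strand reads of the 7 rows summed to 57752 in replicate 1 and 48850 in replicate 2, or 11580 ± 236 CPM (SD, n = 2). They made up 58.6% of all opposite-strand reads in replicate 1 (exact Clopper-Pearson 95% interval 58.3 to 58.9) and 67.8% in replicate 2 (67.4 to 68.1). Against this, 4 rows on chromosome 12 with the same strand pattern held 40464 and 23015 opposite-strand reads, and every other row together held 310 and 230. On the gene strand the 7 rows had 6 reads in all. For 5 rows there was no gene-strand read in either library, Mir497b had 1 read in replicate 1 and 0 in replicate 2, and Gm24111 had 3 and 2. The values nearest to the threshold were far apart: the lowest opposite-strand share among the 7 rows was 99.7%, at Gm24111, and the highest share below the threshold among rows with at least 100 reads was 5.08%, at Mir3074-1.

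**Figure D2:**
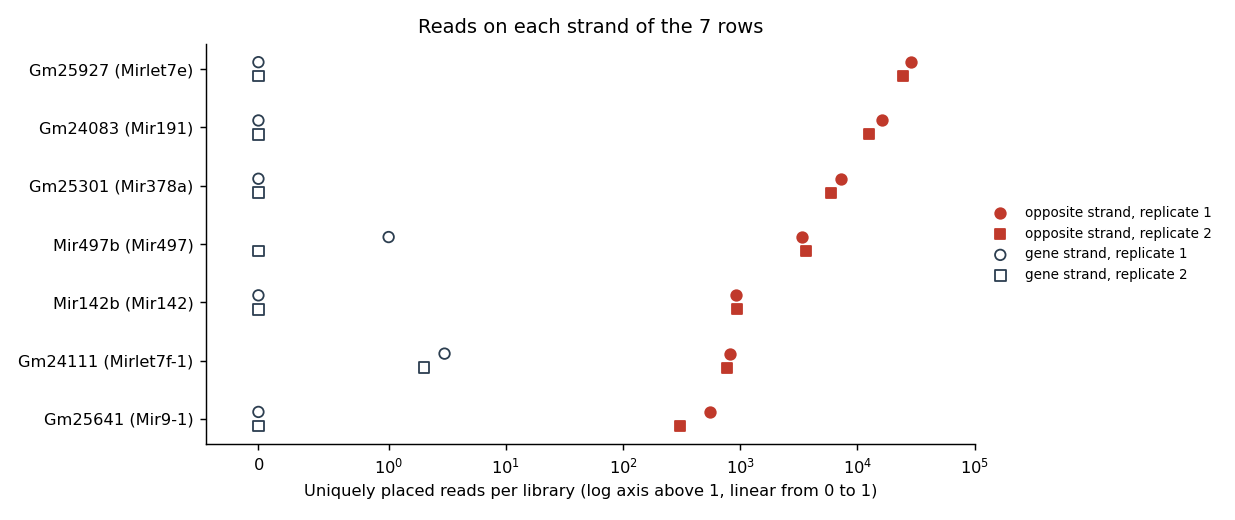
Uniquely placed reads per library on each strand of the 7 rows (x axis, logarithmic above 1 and linear from 0 to 1). Filled red symbols are opposite-strand reads and open symbols gene-strand reads, with circles for replicate 1 and squares for replicate 2. The opposite strand holds 309 to 28720 reads per library, and the gene strand 0 to 3.

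The plot of reads on each strand shows the spread among the 7 rows. The highest mean CPM, at Gm25927, was 63.5 times the lowest, at Gm25641, and Gm25927 alone held 49.7% of the summed reads in replicate 1 and 50.6% in replicate 2. The order of the 7 levels was the same in both libraries. Neighbours in that order did not overlap between libraries except Mir142b, at 183.0 and 226 CPM, and Gm24111, at 161 and 186 CPM.

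Gm25927 holds the reads of the strand of Mirlet7e, a member of the let-7 family that lies in a cluster with Mir99b and Mir125a. Replicate 1 gave 28720 such reads and replicate 2 gave 24709, which is 5676 CPM (95% interval 5610 to 5742) and 5942 CPM (5868 to 6016), with a mean of 5809 ± 188 CPM (SD, n = 2). Taken as the level of a row it would rank 34 of all rows, between Mir151 at 5858 ± 122 CPM and Mir744 at 5745 ± 270 CPM, values that lie within its own spread. Its cluster partners are counted on their own strand: Mir99b, 95 bases away, had 20925 ± 2008 CPM, and Mir125a, 368 bases away, had 5104 ± 737 CPM. The Mirlet7e level was 25.4% of that of Mir99b in replicate 1 and 30.5% in replicate 2, and 1.01 and 1.30 times that of Mir125a. Neither partner had an opposite-strand read. No stretch of 22 bases of Mirlet7e occurs in another annotated miRNA gene, although let-7e-5p differs from let-7a-5p at only 1 position, G9U. Matches elsewhere in the genome, with mismatches or of shorter reads were not searched.

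Gm24111 (ENSMUSG00000093232.1, chr13:48537825-48537921, plus strand) holds the reads of the strand of Mirlet7f-1 (chr13:48537829-48537917, minus strand), the other let-7 gene of the 7 loci. There were 815 reads in replicate 1 and 775 in replicate 2, or 161 and 186 CPM, a mean of 174 ± 17.9 CPM (SD, n = 2). Its partner Mirlet7a-1, 262 bases away, had 431 ± 37.5 CPM, and Mirlet7d, 1715 bases away, had 14123 ± 2304 CPM. The Mirlet7f-1 level was 39.9% of that of Mirlet7a-1 in replicate 1 and 40.8% in replicate 2, the closest match between libraries among the 7 ratios to a partner. One of its 68 stretches of 22 bases, let-7f-5p itself, also occurs in Mirlet7f-2, and reads of exactly that sequence map to several loci and are not in these counts. Mirlet7a-1 has a copy too, Mirlet7a-2, while Mirlet7d has none in the list. The comparisons with these partners are thus of uniquely placed reads, not of mature miRNAs. Mirlet7f-2 had 4826 ± 454 CPM.

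The let-7 reads on these loci were a small part of the uniquely placed reads of the family. The 10 rows of let-7 and Mir98 summed to 167904 ± 6601 CPM (SD, n = 2), led by Mirlet7g at 78156 ± 149 CPM and Mirlet7i at 45210 ± 8.69 CPM. The lowest was Mirlet7a-2, at 327 ± 31.7 CPM. The let-7a, let-7c and let-7f miRNAs each have 2 genes, and reads that fit both copies are not counted. The order of the rows and the shares below are therefore not those of the mature miRNAs. Gm25927 and Gm24111 together added 5982 ± 206 CPM, equal to 3.58% of that sum in replicate 1 and 3.55% in replicate 2. A let-7 total taken from the gene-strand column alone leaves these reads out.

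Gm24083 (ENSMUSG00000092915.1, chr9:108568295-108568414, minus strand) holds the reads of the strand of Mir191 (chr9:108568319-108568392, plus strand). The long noncoding RNA gene 4833445I07Rik overlaps the row on the strand of Mir191. The count was 16159 in replicate 1 and 12493 in replicate 2, or 3193 and 3004 CPM, with a mean of 3099 ± 134 CPM (SD, n = 2). The rows next to it in level were Mir324, at 3258 ± 127 CPM, and Mir16-1, at 3002 ± 167 CPM. Mir425, 385 bases away, had 1201 ± 112 CPM on its own strand. The Mir191 level was 2.49 times that of Mir425 in replicate 1 and 2.68 times in replicate 2. Of this pair, only Mir425 had a row.

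Mir497b (ENSMUSG00000070109.2, chr11:70234692-70234816, minus strand) holds the reads of the strand of Mir497 (chr11:70234717-70234800, plus strand). Here replicate 1 had 3351 reads and replicate 2 had 3672, or 662 and 883 CPM, with a mean of 773 ± 156 CPM (SD, n = 2). Its partner Mir195a, 242 bases away, had 734.5 ± 104.2 CPM, and the Mir497 level was 1.00 times that of Mir195a in replicate 1 and 1.09 times in replicate 2. The 6 listed rows of the miR-15/16 family, Mir195a and Mir195b included, summed to 13023 ± 1410 CPM, with Mir15a highest at 7394 ± 1234 CPM and Mir195b lowest at 0.0988 ± 0.140 CPM. Set beside that sum, Mir497b came to 5.51% in replicate 1 and 6.30% in replicate 2. Mir16-1 and Mir16-2 both encode miR-16-5p, and reads that fit both are not counted, here or in the wider sum below. The order of these rows and the shares are therefore not those of the mature miRNAs. The list leaves out other rows with the miR-497a-5p seed, among them that of miR-322-5p. The 10 rows of other miRNAs with that seed summed to 24467 ± 2459 CPM (SD, n = 2), so Mir497b was a smaller part of this wider sum. A table read by symbol shows Mir497b with 1 gene-strand read and no entry for Mir497.

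Mir142b (ENSMUSG00000065420.2, chr11:87756841-87756955, minus strand) holds the reads of the strand of Mir142 (chr11:87756864-87756927, plus strand). The noncoding host gene Mir142hg overlaps the row on the strand of Mir142. The libraries were close in raw reads, with 926 in replicate 1 and 941 in replicate 2, or 183 and 226 CPM, with a mean of 205 ± 30.6 CPM (SD, n = 2). The next rows in level, Mir214 at 209 ± 84.6 CPM and Mir451a at 195.5 ± 60.9 CPM, lay within that spread. No other miRNA row on its strand lay within 10 kb. The 8 rows listed as blood and microglia markers summed to 567 ± 2.46 CPM, so that Mir142b came to 32.4% of that sum in replicate 1 and 39.8% in replicate 2. Mir451a, an erythroid miRNA, was the highest of the 8, and Mir223, a myeloid miRNA, had 124 ± 38.6 CPM. In tissue RNA, more cells of a type and more RNA per cell cannot be told apart.

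Gm25641 (ENSMUSG00000092876.1, chr3:88215589-88215696, minus strand) holds the reads of the strand of Mir9-1 (chr3:88215598-88215686, plus strand). The gene Gm3764 overlaps the row on the strand of Mir9-1. Replicate 1 had 550 reads here and replicate 2 had 309, or 109 CPM (95% interval 99.8 to 118) and 74.3 CPM (66.2 to 83.1), with a mean of 91.5 ± 24.3 CPM (SD, n = 2). This was the lowest level of the 7. The neighbour Mir3093, 341 bases away, had 30.8 ± 4.17 CPM, and the Mir9-1 level was 3.22 times that in replicate 1 and 2.66 times in replicate 2. Both mature arms of Mir9-1 also occur in Mir9-2 and Mir9-3, and 24 of its 68 stretches of 22 bases, 35.3%, are shared. Reads of exactly a mature miR-9 sequence could therefore not be placed uniquely, and 91.5 CPM is not the level of miR-9 in the tissue. The same holds for Mir9-3, at 717 ± 27.6 CPM, and Mir9-2, at 3.62 ± 1.03 CPM, which share both arms with it. Set beside the sum of these 2 rows, Gm25641 came to 14.7% in replicate 1 and 10.6% in replicate 2.

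Gm25301 (ENSMUSG00000093026.1, chr18:61397813-61397925, plus strand) holds the reads of the strand of Mir378a (chr18:61397835-61397900, minus strand). On the strand of Mir378a the row is overlapped by Ppargc1b, the gene of a coactivator of mitochondrial metabolism. The counts were 7231 reads in replicate 1 and 5951 in replicate 2. These are 1429 CPM (95% interval 1396 to 1462) and 1431 CPM (1395 to 1468), with a mean of 1430 ± 1.39 CPM (SD, n = 2), the smallest difference in CPM between libraries among the 7 rows. The 3 other rows named miR-378, Mir378b, Mir378c and Mir378d, summed to 4.12 ± 0.0440 CPM. The Mir378a reads were 344 times that sum in replicate 1 and 350 times in replicate 2. A search of the gene-strand counts by the name miR-378 therefore finds few of the reads placed on miR-378 genes.

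**Figure D3:**
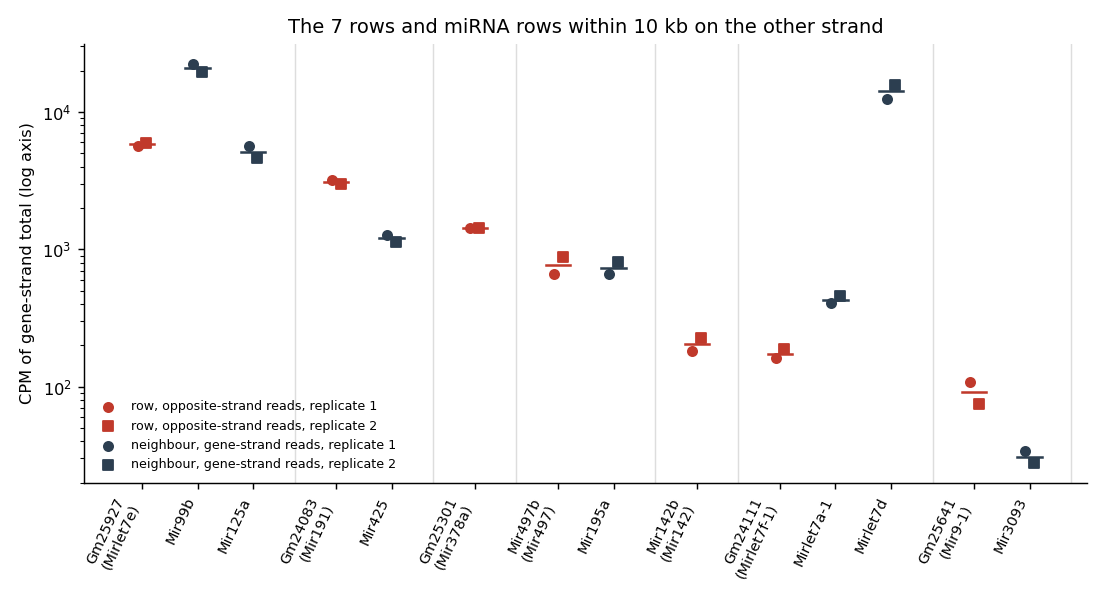
Level (CPM of the gene-strand total, logarithmic y axis) of the opposite-strand reads of the 7 rows in red, and of the gene-strand reads of miRNA rows within 10 kb on the other strand in dark blue. Circles are replicate 1, squares replicate 2 and bars the mean, and grey lines separate the loci. Gm25927 and Mir125a lie close together, as do Mir497b and Mir195a, and Mirlet7d lies far above Gm24111.

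The plot of the 7 rows beside their neighbours holds 7 neighbours at 5 loci. The levels of the rows were between 1.18% of that of a neighbour, for Gm24111 against Mirlet7d in replicate 2, and 3.22 times that of a neighbour, for Gm25641 against Mir3093 in replicate 1. Both rows lack reads that are shared with other gene copies. Within a library the ratio to a partner needs no scaling, and its log2 value in replicate 1 minus that in replicate 2 was farthest from 0 for Gm25927 against Mir125a, at -0.36.

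The 2 libraries were then compared. Library totals were scaled with TMM, a trimmed mean of the log ratios between libraries. A two-sided exact binomial test was applied to each feature with at least 10 reads over both libraries, and Benjamini-Hochberg adjustment ran over all 487 features, 466 of them gene-strand and 21 opposite-strand counts. This test sets the libraries against counting noise and says nothing of a condition. Of the 7 rows, 6 passed an adjusted p of 0.05, beside 46.0% of all features. In replicate 1, 1 row was higher, beside 23.6% of features, and 5 were lower, beside 22.4%. The rows were chosen by their share of opposite-strand reads, not by this ratio. Deeply counted features pass this test at small ratios, and the ratios are given below with the spread over features.

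Gm25641 was higher in replicate 1, with a log2 ratio of replicate 1 over replicate 2 of 0.43 (exact binomial test, adjusted p = 8.09e-05). Lower in replicate 1 by the same exact binomial test were Mir497b, at -0.53 (adjusted p = 3.7e-53), Mir142b, at -0.43 (adjusted p = 7.77e-10), Gm24111, at -0.33 (adjusted p = 1.91e-05), Gm25927, at -0.19 (adjusted p = 1.39e-48), and Gm25301, at -0.12 (adjusted p = 5.18e-06). Gm24083 did not pass, at -0.03 (exact binomial test, adjusted p = 0.128). The call of Gm25301 was lost with unscaled totals, at -0.002 (adjusted p = 0.997 by the exact binomial test), and Gm24083 was then higher in replicate 1, at 0.09 (adjusted p = 9.54e-07 by the exact binomial test). Unscaled totals raised every log2 ratio by 0.12, and moved the split over all features to 161 higher and 72 lower in replicate 1, against 115 and 109 with TMM.

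These ratios were of ordinary size for the libraries. Over the 284 features with at least 100 reads in each library, the median absolute log2 ratio was 0.26, the 5th percentile was -0.60 and the 95th was 0.67. All 7 rows lay between those percentiles. Their median was -0.19, against -0.0009 over the 284 features, and 6 of the 7 lay within 0.5 of 0, against 223 of the 284. Mir497b was the nearest to an edge, with 6.69% of features below it, and 83.5% of features lay below Gm25641.

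**Figure D4:**
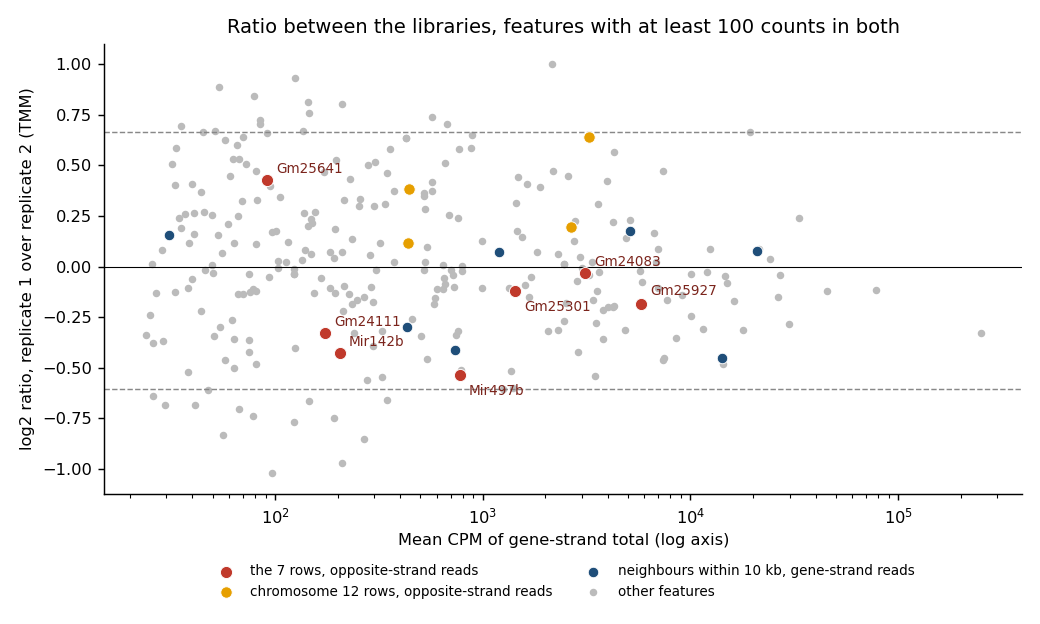
Log2 ratio of replicate 1 over replicate 2 after TMM scaling (y axis) against mean CPM (logarithmic x axis) for the 284 features with at least 100 reads in each library. Red points are the 7 rows, orange the chromosome 12 rows, blue the neighbours within 10 kb, grey other features, and dashed lines the 5th and 95th percentiles. The 7 rows lie between the dashed lines.

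The plot of the ratio between libraries also places each row beside its family and cluster. Mir497b lay near its partner Mir195a, at -0.41, and Gm24111 near Mirlet7a-1, at -0.30, and Mirlet7d, at -0.45. All 10 rows of the let-7 and Mir98 list were lower in replicate 1 by the exact binomial test, with a median log2 ratio of -0.34, but with unscaled totals Mirlet7g and Mirlet7i lay just above 0, at 0.0039 and 0.0004, and 8 of the 10 below. Both let-7 loci of the 7 rows were lower in replicate 1 under both scalings. Gm25927 went the other way from its cluster partners: Mir99b was higher in replicate 1, at 0.08, and Mir125a at 0.18, both past the exact binomial test (adjusted p = 7.13e-30 and 3.83e-38). With unscaled totals Gm25927 stayed lower in replicate 1, at -0.07. Of the 8 blood and microglia rows, 1 was higher and 3 were lower in replicate 1. Mir223 was among the lower ones, at -0.77, and Mir451a was the higher one, at 0.53, so the list did not move one way beside Mir142b. The 4 chromosome 12 rows were all higher in replicate 1, at 0.11 to 0.64, and the share of all opposite-strand reads held by the 7 rows was lower in replicate 1.

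The 7 rows were then set beside the other rows that face a miRNA gene on the other strand. GENCODE M21 has 32 such rows, and none of the 32 facing genes had a row. Beside the 7 rows and the 4 on chromosome 12 (Gm24321, Gm25252, Gm25750 and Mir299b), 21 were left. Of these, 18 had at least 10 reads, 15 of the 18 had under 1% on the opposite strand, and the highest share was 6.67%, at Mir1b with 15 reads in all. Among the 310 rows of the tables with at least 100 reads, 271 had no opposite-strand read, and all 11 rows over 99% faced another miRNA gene. Of the rows with at least 10 reads that face a miRNA gene, none lay between 6.67% and 99%.

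**Figure D5:**
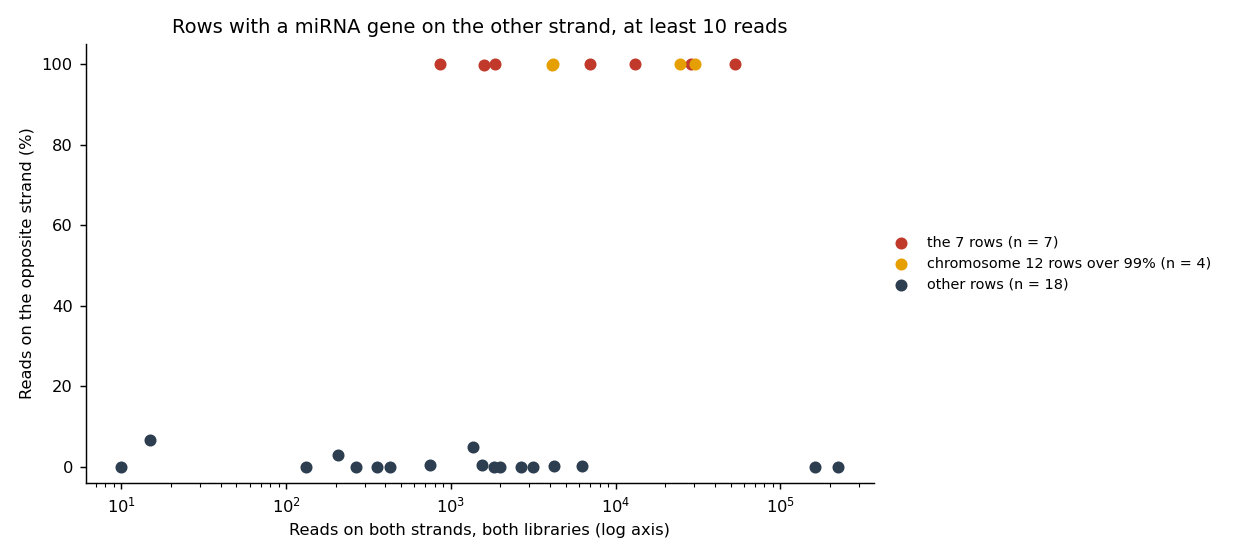
Share of reads on the opposite strand (y axis, percent) against reads on both strands of both libraries (logarithmic x axis) for the 29 rows that face a miRNA gene on the other strand and have at least 10 reads. Red points are the 7 rows, orange the 4 rows on chromosome 12, and dark blue the 18 others. The red and orange points lie at 99.7% or above and the dark blue points at 6.67% or below.

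The predicted folding of the paired strands was not used in choosing the rows. Each stretch that the 2 genes share was folded with RNAfold as the other strand and as the row strand, where a lower minimum free energy means a more stable predicted hairpin. At the 7 rows this stretch has the bounds of the other-strand gene, so the row strand was not folded at its own extent. Folded whole, the longer rows had -30.9 (Gm24111) to -65.7 kcal/mol (Gm25301), lower than the other-strand hairpin except at Gm24111 and Gm25641. Energies of unlike lengths are not comparable. Within the shared stretch, the other strand, which held the reads, had the lower energy in 6 of the 7 rows. The widest gap was at Mirlet7f-1, -43.1 kcal/mol against -29.2 on the row strand, and next came Mir9-1, -41.0 against -33.7. The Mir142 strands were nearly equal, at -26.9 and -26.8 kcal/mol. Mir497 was the exception, with -41.5 kcal/mol on the strand with the reads against -47.1 on the row strand. The row strand minus the other strand had a median of 4.4 kcal/mol over the 7 rows, 2.75 over the 4 chromosome 12 rows and -2.1 over the 18 other rows. Of the 4 chromosome 12 rows, 3 had the lower energy on the other strand, and Gm25252 went the other way, at -2.5 kcal/mol. In those 18 the reads lay on the row strand, which had the lower energy in 12. The energies describe single predicted structures, and no test was made of these counts.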

How the data were processed

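Each library has 1 deposited table of raw read counts per gene, with no header. Per the file headers and notes deposited by the authors, the assembly was mm10 and the annotation GENCODE M4. For aligner, counter and trimming, nothing is given in the sources used here. The 3 count columns are unstranded, gene strand (the larger total) and opposite strand. The 4 totals of unassigned reads entered no library total or test. In replicate 1 they were 40.5% multiply mapping, 19.1% unmapped and 2.50% outside genes, and in replicate 2 these shares were 43.3%, 15.2% and 2.82%, with 0 ambiguous reads. The opposite-strand reads of a library equal the number by which its stranded tally of reads outside genes exceeds the unstranded one, and the 7 rows hold 13.2% of that stranded tally in replicate 1 and 12.8% in replicate 2.

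Symbols, coordinates and row sequences came from GENCODE M21 (GRCm38) by gene identifier, with 1894 of 1973 rows matched. The reads were counted on GENCODE M4, in which the extent of a row could differ. Mature and hairpin sequences came from RefSeq GRCm38.p6, which matched the other-strand hairpin of 6 of the 7 loci. CPM is relative to the gene-strand total and was not divided by length, since a read covers a mature miRNA. Intervals are exact Clopper-Pearson at 95%. TMM factors came from edgeR 4.0.16 under R 4.3.3. The exact binomial test (scipy 1.17.1) used features with a summed count of at least 10, and log2 ratios had 0.5 added to each count. Adjusted p-values are Benjamini-Hochberg over all features. The quasi-likelihood test of edgeR was not used, since there is 1 group. Size factors of DESeq2 1.42.0 were an alternative. Folding used RNAfold 2.7.2. The test was tested on simulated data.

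The 7 rows and the gene lists were chosen with earlier results of these data known. Named are the 7 rows, the miRNA genes on their other strand, rows within 10 kb, rows of the same families, rows next in level, the chromosome 12 rows and rows near the threshold.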

Additional observations from a re-analysis of the deposited data

Results flagged for a closer look

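Opposite-strand reads also occurred, in more than the 3 reads that a count of 0 allows in each library, in 10 rows outside the 7 rows and the 4 on chromosome 12. Mir203 had 206 such reads in both libraries, 1.64% of its reads and the most of the 10, with 118 in replicate 1 and 88 in replicate 2. Mir3074-1, which faces Mir24-1, had 69 (5.08%), and Mir708 had 42 (0.0503%). Mirlet7b had 28 (0.0215%), with 12 in replicate 1 and 16 in replicate 2. Mir337, which faces Mir3544, had 18, Mir374b, which faces Mir374c, had 12, and Mir126a, which faces Mir126b, had 9.

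In 3 rows of few reads the opposite strand held a large share. Gm24513 (chr1:63273226-63273363, minus strand) had 20 reads on it, 13 from replicate 1 and 7 from replicate 2, and none on the gene strand, but no annotated miRNA gene faces it. Mir124a-3 had 15, which is 60% of its reads, and Mir7654 had 14, which is 35.9%.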

How the results depend on the processing

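Settings were changed one at a time. Of the 56 alternative values other than ratios to a cluster partner, 51 kept direction and side of the threshold or stayed within the replicate spread. The 51 include the values with 1 replicate left out. Each of 2 libraries lies within 1 SD of their mean whatever the values, so these could not have left the spread. With unscaled totals Gm24083 turned to 0.0882 on the log2 scale and Gm25301 moved to -0.002, no longer called. With DESeq2 size factors Gm24083 was called, at -0.0438 (adjusted p = 0.0254, exact binomial test), and all 7 rows then passed. The count of rows over the 99% share was 11 with at least 100 reads, 12 with at least 10 and 24 with no minimum, since 13 rows over 99% had at most 20 reads. The mean level of Gm25301 moved to 1404 CPM of unstranded totals, past its replicate SD. Without replicate 1 or 2 in turn the share of all opposite-strand reads in the 7 rows was 58.6% to 67.8% and their sum 11413 to 11746 CPM. TMM over both strands and the ratio to the nearest cluster partner were chosen after seeing the data. The ratio to a partner has no test. Taken to the nearest partner, it kept the direction at its 5 loci, but Gm24111 moved to -0.03, Mir497b to -0.12 and Gm24083 to -0.10. Against the farther partner Mirlet7d, Gm24111 went the other way, at 0.12, while Gm25927 against its farther partner Mir125a kept the direction, at -0.36. The binomial test needs both libraries. No paired analysis was possible because there is 1 group.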
